A study of Mus musculus with 8 samples.

Results

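The 31 genes described here encode the NF-kB transcription factors of the mouse, the proteins that hold them back or release them, and genes that NF-kB is known to switch on. They were chosen by name from a table of 27179 genes, and all 31 symbols were found in it. They were grouped by role into 5 subunits, 5 members of the IkB family, 4 feedback regulators of ubiquitin chains, 6 adaptors and kinases, and 11 targets. Of the 31 genes, 30 had enough counts to be tested among 17702 tested genes in all, and Vcam1 did not.

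Transcripts were counted by bulk RNA sequencing of epidermal cells from C57BL/6J mice, with 4 libraries from aged and 4 from adult mice, each from a separate animal by the methods of the study. The labels give an age of 73 weeks to the aged group and of 17 to 25 weeks to the adult group. They give every sample of both groups 210 µg of a control IgG in 100 µl, injected into the peritoneum 3 times each week over 12 weeks, and name no other allele or agent. The methods describe such injections for ageing mice only and give the aged mice a higher age, so whether the adult mice received the antibody is not settled here, and antibody and age may differ together between the groups. Epidermis was separated from the dermis with dispase and was not sorted. In such bulk samples, fewer cells of a type and less RNA per cell cannot be told apart.

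Total counts ran from 75027694 to 90140102 per library. Levels are given as CPM, counts rescaled to a common library total by the TMM method, and differences as log2 fold changes, positive where aged cells were higher, each with its standard error (SE). Adult replicates 3 and 4 stood apart from the other 6 libraries over all tested genes. On the first principal component, which took 45.2% of the variance, they lay at 75.8 and 52.2 and the other libraries between -36.2 and -6.25. Keratinocyte markers were abundant throughout, with summed levels of the basal list of 8817.5 to 18651 CPM, and dermal markers were low, with 2.12 to 4.92 CPM for the endothelial and 5.05 to 52.3 CPM for the fibroblast list.

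NF-kB is a family of dimeric transcription factors that wait in the cytoplasm, bound to inhibitors of the IkB family. Signals from receptors for tumour necrosis factor, interleukin 1, interleukin 17 or microbial products activate the IkB kinase, IkB is degraded, and the dimers enter the nucleus. Among the genes they then switch on are those of their own inhibitors, which close the loop. In skin, the pathway serves the defence of the keratinocyte barrier and the maturation of dendritic cells, and its loss or excess leads to inflammation.

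None of the 30 tested genes was called different with age. A call needed an adjusted p under 0.1 and a log2 fold change over 0.32 in either direction, in the quasi-likelihood test of edgeR with adjustment over all tested genes, and 0.113% of all tested genes met it. The adjusted p of the members ran from 0.836 to 0.995, and 0 of them had an unadjusted p under 0.05, against 5.99% of all tested genes. DESeq2 called 0 members and 0.743% of all 27179 genes, those too low for the edgeR test included, with 0 members at an unadjusted p under 0.05. Among the 17702 genes tested in edgeR, DESeq2 called 71 higher and 124 lower. Limma-voom called 0 members and 0.096% of these tested genes, with 1 member, Tnip3, at an unadjusted p under 0.05. With the replicate number as a block, edgeR called 0 members and 0.0169% of all tested genes. In that fit 3 members, Tnfaip3, Ptgs2 and Tnip3, had an unadjusted p under 0.05, against 12.6% of all tested genes, and the smallest adjusted p of a member was 0.374. In 23 members the estimate lay above 0 and in 7 below, with a median of 0.12 on the log2 scale, against 0.010 over all tested genes. The estimates ran from -0.47 in Cd40 to 1.10 in Tnip3, and the SE was larger than the estimate in 20 members. Aged and adult libraries overlapped in all 30, whereas the groups did not overlap in 3.54% of all tested genes.

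The precision differed much between members. The 95% interval included 0 in all 30 members. It lay within the 0.32 of that threshold for 4 members, within a 1.5-fold difference in either direction for 13 and within 2-fold for 20. For the remaining 10 members the interval reached beyond a 2-fold difference. These intervals do not use the replicate block, with which the SE was smaller in 28 of the 30 members. Leaving out adult replicates 3 and 4 turned the sign of the estimate in 17 of the 30 members. Aged replicates 3 and 4 stayed in that fit. If the replicate numbers pair the libraries, which is uncertain, it therefore drops only the adult side of those pairs.

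**Figure D1:**
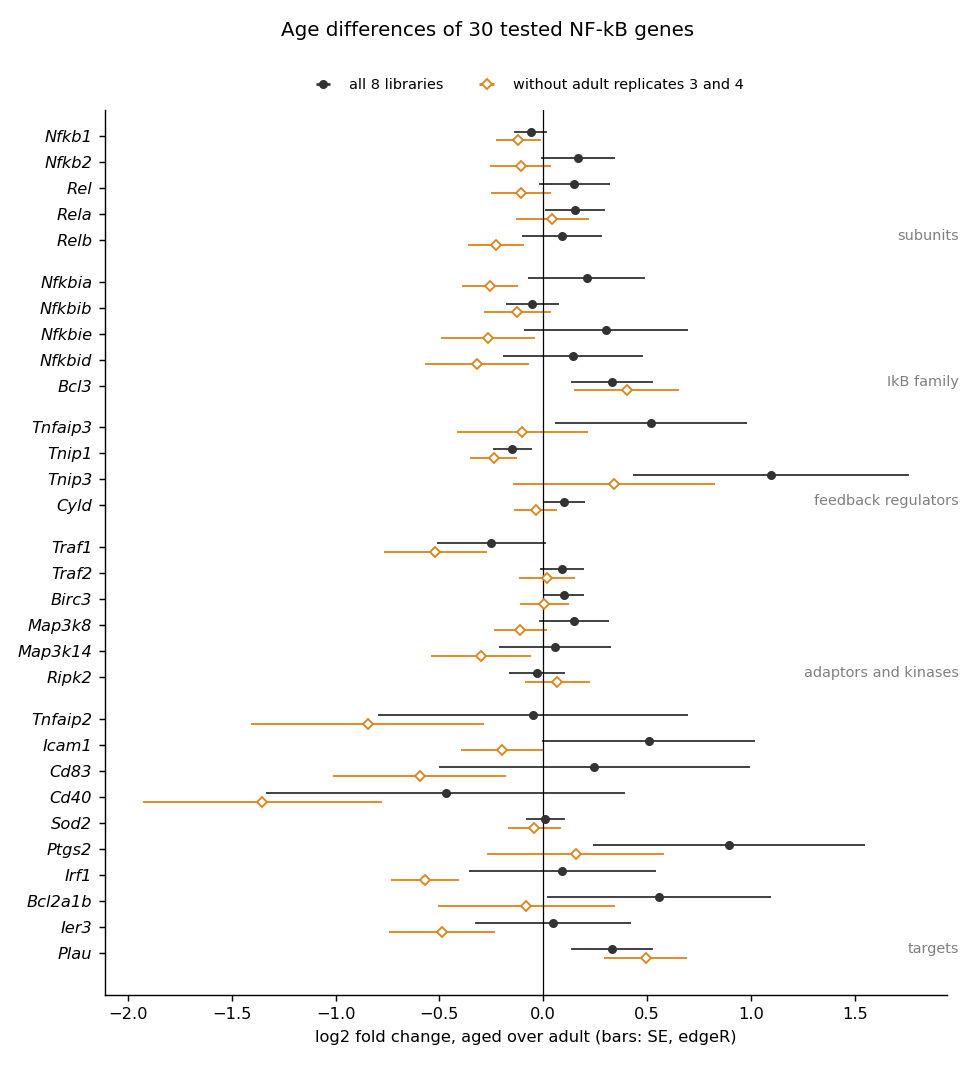
Log2 fold change of aged over adult for each of the 30 tested NF-kB genes, with bars of 1 SE from edgeR, using all 8 libraries (filled circles) or leaving out adult replicates 3 and 4 (open diamonds). With all libraries 23 points lie to the right of 0, and without these 2 adult libraries 22 lie to the left.

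The sequences just before annotated starts of 5 members are given. They are shown because their genes differed in spread, from 1.34-fold between the highest and lowest library in Tnip1 to 5.62-fold in Tnfaip3, while all carry the kB consensus, the sequence to which NF-kB dimers bind. Nfkbia, at chr12:55492648-55492897 on the minus strand, has a match starting 29 bases before the start. Tnfaip3, at chr10:19015411-19015660 on the minus strand, has matches at 125 and 12 bases. Nfkb2, at chr19:46304487-46304736 on the plus strand, has overlapping matches at 39 and 38 bases and another at 11, and this stretch overlaps an antisense noncoding transcript in GENCODE. Irf1, at chr11:53769764-53770013 on the plus strand, has a match at 13 bases. Tnip1, at chr11:54962941-54963190 on the minus strand, has overlapping matches at 58, 57 and 56 bases. Another annotated start of Tnfaip3 and another of Irf1, not shown, have no match in their windows, while the further starts of Nfkb2 do. The sequences, from RefSeq on GRCm38.p6, read 5′ to 3′ on the strand of the gene and end at the last base before the start, and capitals mark the kB matches of either strand.
Nfkbia: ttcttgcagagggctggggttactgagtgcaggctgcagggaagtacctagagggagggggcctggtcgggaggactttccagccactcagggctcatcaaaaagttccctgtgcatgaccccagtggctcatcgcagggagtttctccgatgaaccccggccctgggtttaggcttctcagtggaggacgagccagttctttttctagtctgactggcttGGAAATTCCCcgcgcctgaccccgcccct
Tnfaip3: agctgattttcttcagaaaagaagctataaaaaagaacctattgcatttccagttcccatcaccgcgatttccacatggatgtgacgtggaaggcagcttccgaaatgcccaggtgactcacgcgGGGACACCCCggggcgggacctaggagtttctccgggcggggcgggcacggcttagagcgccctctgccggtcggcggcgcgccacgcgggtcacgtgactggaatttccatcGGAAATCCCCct
Nfkb2: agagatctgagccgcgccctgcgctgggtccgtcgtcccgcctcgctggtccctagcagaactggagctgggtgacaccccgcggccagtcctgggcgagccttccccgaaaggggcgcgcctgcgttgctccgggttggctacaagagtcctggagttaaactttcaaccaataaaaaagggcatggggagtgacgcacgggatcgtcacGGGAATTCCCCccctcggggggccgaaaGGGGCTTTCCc
Irf1: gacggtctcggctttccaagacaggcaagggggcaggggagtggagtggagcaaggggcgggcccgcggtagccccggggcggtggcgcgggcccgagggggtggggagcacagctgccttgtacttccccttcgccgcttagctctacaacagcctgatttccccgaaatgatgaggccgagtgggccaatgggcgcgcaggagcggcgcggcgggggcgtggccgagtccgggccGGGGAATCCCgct
Tnip1: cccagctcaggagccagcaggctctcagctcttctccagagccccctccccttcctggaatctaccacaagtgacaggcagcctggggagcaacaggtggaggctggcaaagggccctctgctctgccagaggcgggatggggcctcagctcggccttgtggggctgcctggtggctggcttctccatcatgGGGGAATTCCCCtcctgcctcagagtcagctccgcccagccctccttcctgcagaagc

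Promoter windows, from 250 bases before to 50 bases after a start, were found for 23 of the 31 members, in 29 windows. The consensus of 10 bases, searched on both strands and counted also where matches overlap, was present in 15 of the 29 windows (51.7%) and in 13 of the 23 genes. Overlapping windows of Nfkb2 share a match, which is counted in both. Over all 32851 windows of the RefSeq table the share was 4.51%, and over all genes with a window it was 5.14%. The members were chosen as known genes of NF-kB, so this contrast is no independent result. At least 2 matches were found in 6 member windows and in 0.554% of all windows. All 4 feedback regulators and 4 of 5 IkB genes had a match, as did 2 of 3 subunits and 3 of 7 targets. The 4 adaptors and kinases with a window had 0, which says only that these letters were not in these windows. The letters TATAAA, searched before the start on both strands, were present in 2 member windows and in 12.4% of all windows. A match is a description of the letters and not a measured binding site.

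Among the subunits, the levels were close in aged and adult cells. Per kilobase of exon and over all 8 libraries, Rela was highest at 12.8 ± 2.09 CPM per kb (SD), followed by Nfkb2 at 10.3 ± 2.01, Nfkb1 at 8.98 ± 0.50, Relb at 4.32 ± 0.88 and Rel at 3.42 ± 0.62. Neighbours in this order differed by less than their summed SDs, except Nfkb1 and Relb. The order depends on the length used, which joins the exons of all annotated transcripts of a gene, 12.1 kb for Nfkb1 and 3.07 kb for Rela. In CPM without length Nfkb1 was the highest subunit, at means of 106 in aged and 111 in adult libraries, against 41.3 and 37.1 for Rela. Nfkb2 overlaps Psd and 4833438C02Rik, and reads in the overlap were counted for each of these genes.

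Nfkb1 encodes p105, the precursor of the p50 subunit. It was measured at 103, 104, 114 and 102 CPM in aged replicates 1 to 4 and at 112, 118, 104 and 108 CPM in adult replicates 1 to 4. The group means were 106 ± 5.65 and 111 ± 6.24 CPM (SD, n = 4 each). Highest and lowest library differed 1.16-fold, the smallest range of any member, and the log2 fold change was -0.061 ± 0.081 (adjusted p = 0.911).

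Rela (Entrez 19697, chromosome 19, 5637442 to 5648134 on mm10) encodes p65, the transactivating subunit of the main inducible dimer. Aged replicates 1 to 4 had 53.4, 38.3, 40.0 and 33.4 CPM, and adult replicates 1 to 4 had 39.5, 40.6, 33.7 and 34.7 CPM. Aged replicate 1 was highest and aged replicate 4 lowest, so the adult libraries lay inside the aged range. Its log2 fold change was 0.15 ± 0.14, with an interval of -0.17 to 0.48 (adjusted p = 0.884), and it was 0.010 without aged replicate 1.

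The other 3 subunits shared a pattern in which adult replicates 3 and 4 were the lowest of the 8 libraries. Nfkb2, the precursor of p52 in the noncanonical branch, had 61.1, 43.2, 48.6 and 46.8 CPM in the aged and 55.5, 52.0, 35.6 and 34.7 CPM in the adult libraries. Relb, the partner of p52, had 18.3, 17.4, 17.6 and 15.9 CPM in the aged and 17.8, 22.7, 11.8 and 12.7 CPM in the adult libraries. Rel, which encodes c-Rel, a subunit prominent in immune cells, ranged from 22.9 to 30.7 CPM in aged and from 18.9 to 29.2 CPM in adult libraries. The log2 fold changes were 0.17 ± 0.18 for Nfkb2, 0.090 ± 0.19 for Relb and 0.15 ± 0.17 for Rel. Leaving out adult replicates 3 and 4, all 3 lay below 0, at -0.11, -0.23 and -0.11.

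The IkB family held the most abundant member. Nfkbia (Entrez 18035, chromosome 12, 55489409 to 55492647) encodes IkB alpha, the inhibitor that is degraded and resynthesised within each round of activation. It reached 128 ± 36.6 CPM per kb over the 8 libraries, against 18.4 ± 7.32 CPM per kb for Ier3, the next member. Aged replicates 1 to 4 had 246, 222, 192 and 224 CPM. Adult replicates 1 and 2 had 266 and 261 CPM, above every aged library, and adult replicates 3 and 4 had 110 and 127 CPM, below every aged library. The aged libraries thus lay between the adult libraries of highest and lowest level. Group means were 221 ± 22.1 and 191 ± 83.9 CPM, and the log2 fold change was 0.21 ± 0.28 (adjusted p = 0.913).

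Nfkbie, which encodes IkB epsilon, and Nfkbid, which encodes the nuclear protein IkB-NS, followed Nfkbia at lower levels. Nfkbie had 7.72, 5.53, 6.00 and 4.26 CPM in the aged and 7.32, 6.81, 2.12 and 2.77 CPM in the adult libraries. Its log2 fold change was 0.30 ± 0.39, with an interval of -0.58 to 1.19. Nfkbid had 5.50, 4.54, 3.42 and 3.07 CPM in the aged and 5.37, 4.93, 1.97 and 2.66 CPM in the adult libraries, a log2 fold change of 0.14 ± 0.34. In both genes, aged replicate 1 and adult replicates 1 and 2 were the highest libraries and adult replicates 3 and 4 the lowest.

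Nfkbib and Bcl3 did not have this pattern. Nfkbib encodes IkB beta, and its levels stayed between 8.13 and 10.6 CPM in all 8 libraries, with a log2 fold change of -0.052 ± 0.13. Bcl3 encodes a nuclear IkB protein that acts on p50 and p52 dimers. It had 2.70, 1.93, 2.91 and 2.72 CPM in the aged and 1.82, 2.06, 1.85 and 2.42 CPM in the adult libraries. The 3 highest values were aged, but aged replicate 2 lay below 2 adult libraries. Its adjusted p of 0.836, at a log2 fold change of 0.33 ± 0.20, was the smallest among the members (shared with Tnip3 and Plau), and the estimate was 0.40 ± 0.25 without adult replicates 3 and 4.

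**Figure D2:**
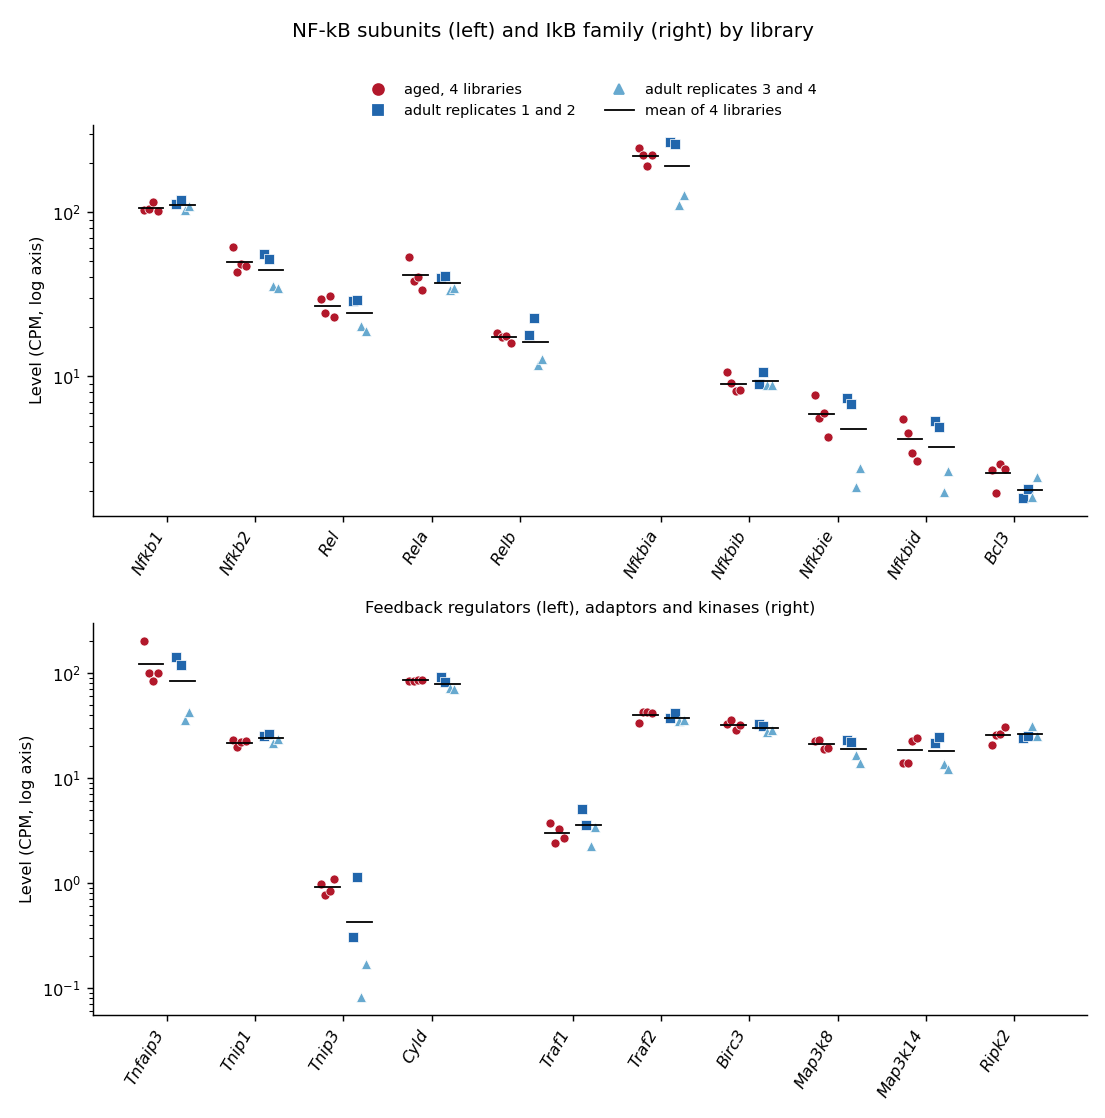
Levels of the subunits and the IkB family (upper panel) and of the feedback regulators, adaptors and kinases (lower panel) in CPM on log axes, 1 symbol per library with circles for aged, squares for adult replicates 1 and 2 and triangles for adult replicates 3 and 4, and lines for the mean of 4. For Nfkbia the squares lie at 266 and 261 CPM and the triangles at 110 and 127 CPM, with the aged circles between them.

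Of the feedback regulators, Tnfaip3 varied much more than Cyld. Tnfaip3 (Entrez 21929, chromosome 10, 19000910 to 19015410) encodes A20, which edits ubiquitin chains on signalling proteins and so damps NF-kB. Aged replicates 1 to 4 had 200, 98.8, 84.1 and 99.3 CPM, and adult replicates 1 to 4 had 141, 118, 35.6 and 42.3 CPM. The highest and lowest library, aged replicate 1 and adult replicate 3, differed 5.62-fold. The aged mean was 121 ± 53.6 CPM and the adult mean 84.2 ± 53.1 CPM, so the SD of either group exceeded the difference of the means. Its log2 fold change was 0.52 ± 0.46 (interval -0.53 to 1.56, adjusted p = 0.879). Without aged replicate 1 it was 0.17, without adult replicates 3 and 4 -0.10 ± 0.31, and with the replicate block 0.68 ± 0.26.

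Cyld encodes a deubiquitinase that removes ubiquitin chains from the pathway's scaffolds and is known in humans as a tumour suppressor of skin appendages. It had 83.6, 84.1, 86.3 and 85.5 CPM in the aged libraries, which differed 1.03-fold at most. The adult libraries had 91.4, 82.7, 71.7 and 70.5 CPM, and the log2 fold change was 0.10 ± 0.098. Tnip1 encodes ABIN1, an adaptor that brings A20 to ubiquitin chains. It ranged from 19.7 to 23.1 CPM in aged and from 21.4 to 26.5 CPM in adult libraries, with a log2 fold change of -0.15 ± 0.094 (adjusted p = 0.838). Its highest and lowest library differed 1.34-fold, and its 3 kB matches are those shown above.

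Tnip3, which encodes ABIN3, a further A20-binding protein, had the highest estimate of all members at a very low level. Its values were 0.98, 0.77, 0.84 and 1.09 CPM in the aged and 0.31, 1.15, 0.082 and 0.17 CPM in the adult libraries, from 6 to 101 counts. Adult replicate 2 lay above every aged library and the other 3 adult libraries below all of them. The log2 fold change of 1.10 ± 0.66 had an interval of -0.40 to 2.59 (adjusted p = 0.836), and it was 0.34 ± 0.49 without adult replicates 3 and 4. With the replicate block it was 1.66 ± 0.67 (adjusted p = 0.391).

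The 6 adaptors and kinases had log2 fold changes from -0.25 to 0.15, with a median of 0.074. Their highest and lowest libraries differed from 1.28-fold in Traf2 to 2.29-fold in Traf1. Traf2 and Birc3 encode an adaptor and a ubiquitin ligase that act together at the receptor of tumour necrosis factor. Traf2 had 33.3, 42.3, 42.5 and 41.3 CPM in the aged and 36.9, 41.9, 34.9 and 35.8 CPM in the adult libraries, and Birc3 stayed between 27.5 and 35.7 CPM in all. Ripk2, the kinase downstream of the NOD receptors, had means of 25.7 ± 4.08 CPM in aged and 26.2 ± 3.24 CPM in adult libraries. For these 3 genes the 95% interval lay within 1.5-fold in either direction.

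Map3k14 encodes NIK, the kinase that starts the noncanonical branch, and its low and high libraries did not follow age. Aged replicates 1 and 2 had 13.9 and 13.8 CPM and aged replicates 3 and 4 had 22.6 and 24.0 CPM, while adult replicates 1 to 4 had 21.5, 24.3, 13.5 and 12.2 CPM. The groups overlapped almost fully, and the log2 fold change was 0.055 ± 0.27. Map3k8 encodes TPL2, a kinase held by p105, and had 22.5, 23.0, 18.9 and 19.3 CPM in the aged and 23.1, 22.1, 16.4 and 13.8 CPM in the adult libraries. Traf1, itself a known target of NF-kB, had 3.69, 2.40, 3.28 and 2.67 CPM in the aged and 5.11, 3.53, 2.23 and 3.44 CPM in the adult libraries. Its log2 fold change was -0.25 ± 0.26, and -0.52 ± 0.25 without adult replicates 3 and 4.

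Most targets spread far more between adult libraries than between the groups. Icam1 (Entrez 15894, chromosome 9, 21015940 to 21028814) encodes an adhesion molecule that holds leukocytes. It had 41.7, 34.4, 27.5 and 24.9 CPM in aged replicates 1 to 4 and 39.4, 34.4, 6.24 and 10.3 CPM in adult replicates 1 to 4. Adult libraries differed 6.32-fold and aged libraries 1.68-fold. The log2 fold change was 0.51 ± 0.51 (interval -0.65 to 1.66, adjusted p = 0.888), and -0.20 ± 0.20 without adult replicates 3 and 4.

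Ptgs2 (Entrez 19225, chromosome 1, 150100031 to 150108234) encodes cyclooxygenase 2, the inducible enzyme of prostaglandin synthesis. Its levels were 59.5, 19.0, 25.8 and 27.4 CPM in the aged and 38.8, 20.4, 3.17 and 8.48 CPM in the adult libraries. The highest and lowest library differed 18.8-fold, and aged replicate 2 lay below 2 adult libraries. Between the groups, the log2 fold change was 0.89 ± 0.66 (interval -0.58 to 2.37, adjusted p = 0.851), and 0.16 ± 0.43 without adult replicates 3 and 4. With the replicate block it was 1.26 ± 0.50 (adjusted p = 0.385).

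Irf1 (Entrez 16362, chromosome 11, 53770014 to 53778374) encodes an interferon regulatory factor. Aged replicates 1 to 4 had 38.7, 43.9, 31.1 and 29.6 CPM, adult replicates 1 and 2 had 52.9 and 53.5 CPM, and adult replicates 3 and 4 had 12.5 and 15.5 CPM. All aged libraries lay inside the adult range, as for Nfkbia. The log2 fold change was 0.092 ± 0.45 (adjusted p = 0.983). Against adult replicates 1 and 2 alone it was -0.57 ± 0.16 with an adjusted p of 0.951, the smallest of the members in that comparison, which did not pass.

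Ier3 encodes an immediate-early protein that affects cell survival, and its exons gave 18.4 CPM per kb. Its aged libraries had 28.1, 25.9, 14.97 and 15.6 CPM and its adult libraries 28.4, 30.9, 10.7 and 11.9 CPM. Bcl2a1b, of the anti-apoptotic Bcl2 family, had 2.15, 0.96, 0.94 and 0.80 CPM in the aged and 1.29, 1.27, 0.26 and 0.45 CPM in the adult libraries. It has near-identical copies in the mouse genome, whose shared reads were not counted, so its level is uncertain. The log2 fold changes were 0.045 ± 0.38 for Ier3 and 0.56 ± 0.54 for Bcl2a1b, which was 0.14 without aged replicate 1.

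Cd83, Cd40 and Tnfaip2 are known for their expression in activated dendritic cells, lymphocytes or myeloid cells. Cd83, a marker of mature dendritic cells, had 10.1, 7.17, 3.47 and 3.20 CPM in the aged and 9.44, 8.69, 0.81 and 1.23 CPM in the adult libraries. Cd40, the receptor for the CD40 ligand of T cells, was near the limit of detection. It had 0.30, 0.15, 0.054 and 0.19 CPM in the aged and 0.41, 0.49, 0.027 and 0.028 CPM in the adult libraries, and the values of adult replicates 3 and 4 lay under the 3 counts that a count of 0 allows. Tnfaip2 had 25.5, 9.83, 6.57 and 4.65 CPM in the aged and 25.6, 16.2, 2.85 and 3.50 CPM in the adult libraries. Aged replicate 1 and adult replicate 1 were alike and highest. The log2 fold changes were 0.25 ± 0.75, -0.47 ± 0.86 and -0.051 ± 0.75 in this order.

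Sod2 and Plau lay apart from the other targets. Sod2 encodes the manganese superoxide dismutase of mitochondria, and it was between 68.2 and 84.8 CPM in all 8 libraries. Its log2 fold change was 0.011 ± 0.096, with an interval of -0.20 to 0.23, and its promoter window holds a kB match 83 bases before the start. Plau encodes the urokinase-type plasminogen activator, which keratinocytes use when they migrate. It had 26.4, 43.0, 32.1 and 42.0 CPM in the aged and 25.2, 25.8, 38.9 and 24.2 CPM in the adult libraries. Aged libraries 2 and 4 were highest, adult replicate 3 came next, and adult replicate 4 was lowest. The log2 fold change was 0.33 ± 0.20 (adjusted p = 0.836), and 0.49 ± 0.20 without adult replicates 3 and 4 (adjusted p = 1.0).

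Vcam1, an adhesion molecule of activated endothelium, was too low to be tested. It had 0.39, 0.084, 0.054 and 0.22 CPM in the aged and 0.18, 0.068, 0 and 0.056 CPM in the adult libraries, at most 34 counts. The 0 in adult replicate 3 allows a level of up to 0.0411 CPM, a limit that covers counting error only.

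**Figure D3:**
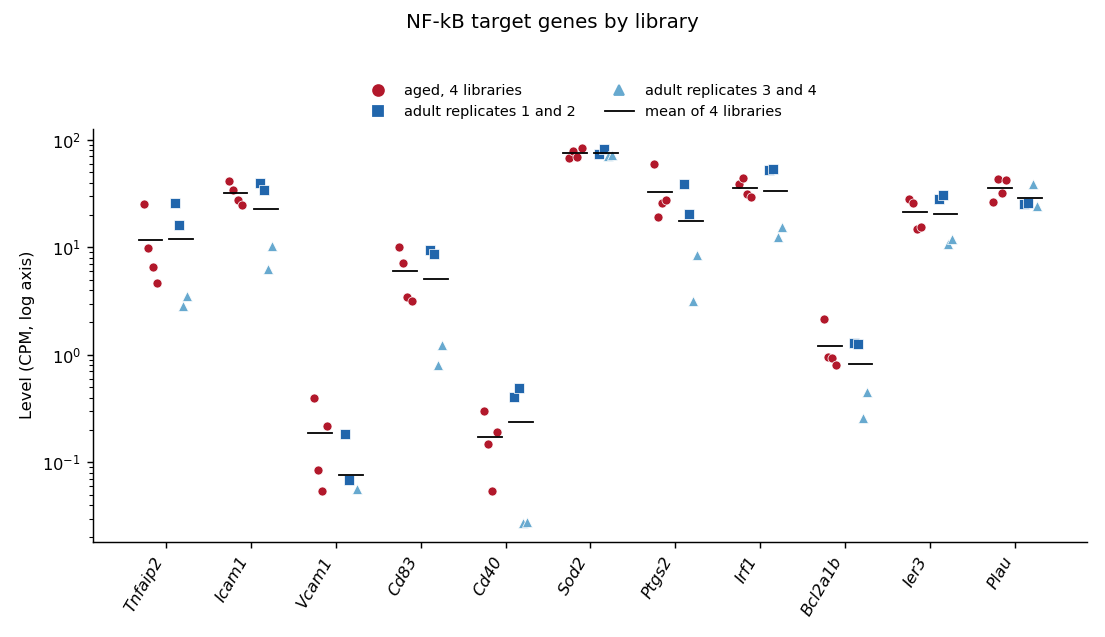
Levels of the 11 targets in CPM on a log axis, 1 symbol per library with circles for aged, squares for adult replicates 1 and 2 and triangles for adult replicates 3 and 4, and lines for the mean of 4. The triangles lie lowest for 8 of the 10 tested targets, and the value of 0 for Vcam1 in adult replicate 3 cannot be drawn on this axis.

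Across the members, adult replicates 3 and 4 stood apart in most genes. How the variation divides between libraries and age was not tested. Adult replicates 3 and 4 were both below the other 6 libraries in 20 of the 30 tested members (66.7%), against 17.1% of all tested genes. They were both above the other 6 in 0 members, against 14.6% of all tested genes. Among the roles the count was 3 of 5 subunits, 3 of 5 IkB genes, 3 of 4 feedback regulators, 3 of 6 adaptors and kinases and 8 of 10 targets. Of the 13 tested members with a kB match in a window, 10 had this order, as had 6 of the 10 members with a window and no match. These counts are descriptions, with no test, since these libraries were singled out because they stand apart over all genes.

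The median deviation of the members from their own means over 8 libraries, on the log2 scale, was 0.28, 0.11, 0.038 and -0.0064 in aged replicates 1 to 4. In adult replicates 1 to 4 it was 0.25, 0.21, -0.43 and -0.45. Among the targets alone, it ran from 0.91 in aged replicate 1 and 0.76 in adult replicate 1 to -1.62 in adult replicate 3 and -1.08 in adult replicate 4. In aged replicates 2 to 4 it was 0.30, -0.050 and 0.014, so aged replicates 3 and 4 were the lower aged libraries.

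The spread within a group was accordingly wider in the adult libraries. The SD of log2 CPM was larger in the adult than in the aged group for 22 of 30 members (73.3%), against 55.7% of all tested genes. Its median over members was 0.26 in aged and 0.46 in adult libraries, against 0.22 and 0.25 over all tested genes. All aged libraries lay inside the adult range in 11 members (36.7%), against 18.4% of all tested genes. Adult replicate 3 was the lowest library for 16 of the 30 members and adult replicate 4 for 6, against 22.8% and 9.13% of all tested genes. Aged replicate 1 was the highest for 10 and adult replicate 2 for 8, against 13.4% and 11.1% of all tested genes.

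**Figure D4:**
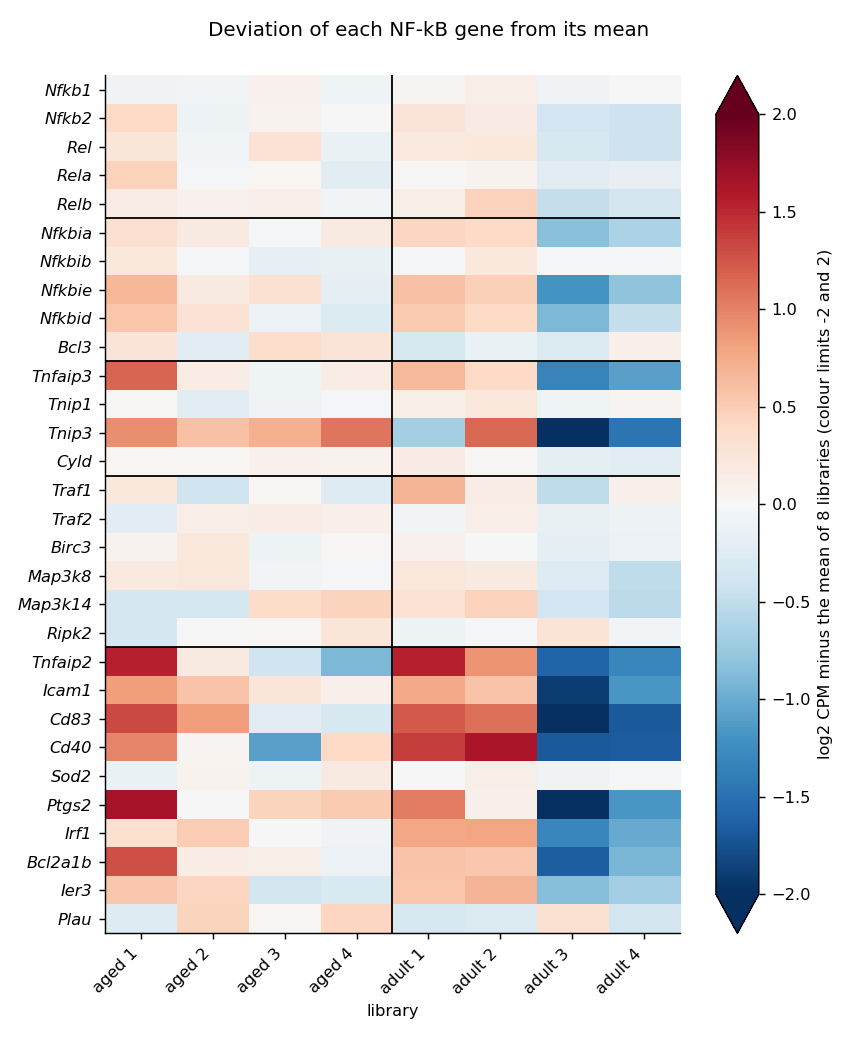
Deviation of each of the 30 tested members from its mean over 8 libraries, in log2 CPM, with aged libraries on the left and adult libraries on the right of the vertical line and roles between horizontal lines; colours end at -2 and 2. Adult replicates 3 and 4 are blue for most members, strongest among the targets, where their medians are -1.62 and -1.08.

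Without adult replicates 3 and 4, the comparison of 4 aged with 2 adult libraries again called 0 members, while 0.0549% of all tested genes were called. Of the 30 members 8 then lay above 0 and 22 below, with a median of -0.12 on the log2 scale. The median of each role changed sign. It went from 0.15 to -0.11 for the subunits, from 0.21 to -0.26 for the IkB family, from 0.31 to -0.069 for the feedback regulators, from 0.074 to -0.052 for the adaptors and kinases, and from 0.17 to -0.34 for the targets. The smallest adjusted p was 0.951 in edgeR. In 3 members, Irf1, Cd40 and Plau, the unadjusted p was under 0.05, as in 3.21% of all tested genes. The estimates that kept their sign above 0 were those of Rela, Bcl3, Tnip3, Traf2, Birc3, Ptgs2 and Plau.

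Genes further up and down the pathway were read from lists of textbook members. Of 28 tested genes of the IkB kinase complex and upstream signalling, 0 were called, 15 lay above 0 and 13 below, with a median log2 fold change of 0.0067. Their median deviation stayed between -0.057 and 0.049 in every library, adult replicates 3 and 4 included. The 3 most abundant were Traf6, a ubiquitin ligase, Tab2, an adaptor of TAK1, and Map3k7, which encodes TAK1, the kinase that activates the IkB kinase. Their log2 fold changes were -0.064 ± 0.16, -0.21 ± 0.099 and 0.0043 ± 0.078. Ikbke, a kinase related to the IkB kinase, was the member of this list with an unadjusted p under 0.05, at 0.35 ± 0.15 (adjusted p = 0.815). Of 20 tested genes for other negative regulators 10 lay above 0 and 10 below, and 0 were called. The 3 most abundant were Tax1bp1, an adaptor of A20, at 0.084 ± 0.12, Nlrc5, at -0.11 ± 0.16, and Nfkbiz. Zc3h12a, which encodes the RNase regnase-1, was at 0.67 ± 0.25 (adjusted p = 0.775), and it and Nfkbiz were the members with an unadjusted p under 0.05. Nfkbiz, which encodes the inducible nuclear protein IkB zeta, had 215, 244, 295 and 271 CPM in the aged and 256, 199, 125 and 159 CPM in the adult libraries. Its log2 fold change of 0.47 ± 0.21 had an interval of 0.0034 to 0.94 and an adjusted p of 0.824, and it was 0.17 ± 0.17 without adult replicates 3 and 4.

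Among 29 tested further targets of NF-kB, 20 lay above 0 and 9 below, with a median of 0.22, and edgeR called 0. Without adult replicates 3 and 4, 11 lay above 0 and 18 below, with a median of -0.050. The 3 most abundant, B2m of the class I antigen complex, the syndecan Sdc4 and Cflar, an inhibitor of cell death, were at 0.17 ± 0.18, -0.094 ± 0.13 and -0.040 ± 0.13. In 13 of them adult replicates 3 and 4 were below the other 6 libraries. Aged and adult libraries did not overlap in 3 of these 29 genes, Ccl20, Cfb and Mmp3, against 3.54% of all tested genes. The 3 genes are named because of this outcome. Ccl20, a chemokine of epithelia, had 0.81, 0.63, 0.70 and 1.87 CPM in the aged and 0.41, 0.33, 0.16 and 0.14 CPM in the adult libraries, with a log2 fold change of 1.92 ± 0.48 (adjusted p = 0.514). Cfb, complement factor B, had a mean of 3.70 ± 0.86 CPM in aged and of 2.16 ± 0.32 CPM in adult libraries (adjusted p = 0.600). DESeq2 called Ccl20 and Cfb (adjusted p = 0.0194 and 0.0525), and edgeR did not. Among the 17702 genes tested in edgeR, DESeq2 called 71 higher and 124 lower. Mmp3, a matrix metalloproteinase, had 1.82 ± 0.47 and 0.72 ± 0.52 CPM (adjusted p = 0.784 in edgeR and 0.321 in DESeq2).

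Immediate-early genes, which respond within minutes to stress and to the handling of tissue, moved with the members between libraries. Their summed level was 9178.1 to 12311 CPM in the aged libraries and 12200, 9187.3, 3768.8 and 5739.3 CPM in adult replicates 1 to 4. Of the 16 genes, adult replicates 3 and 4 were below the other 6 libraries in 13, and 0 were called. The median log2 fold change of the list was 0.35, and -0.043 without adult replicates 3 and 4. The 3 most abundant were Fos, Jun and Atf3, with log2 fold changes of 0.31 ± 0.37, 0.33 ± 0.28 and 0.80 ± 0.60. Atf3, a stress-induced factor, had 1360 and 834 CPM in adult replicates 1 and 2 and 135 and 318 CPM in adult replicates 3 and 4. Its aged libraries had 1759, 1111, 940 and 801 CPM. Their part in the levels of the members was not tested.

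Markers of Langerhans cells, the dendritic cells of the epidermis, also moved with the members. The 9 genes of this list, summed, had 426, 230, 174 and 128 CPM in aged replicates 1 to 4 and 393, 396, 57.8 and 90.1 CPM in adult replicates 1 to 4. As for Cd83 and Tnfaip2, aged replicate 1 and adult replicates 1 and 2 were highest and adult replicates 3 and 4 lowest. Cd207, which encodes langerin, the defining marker, had 31.9, 13.7, 8.70 and 6.22 CPM in the aged and 25.7, 21.0, 0.86 and 2.94 CPM in the adult libraries, and 0 of the 9 genes had no counts. Adult replicates 3 and 4 were below the other 6 libraries in 8 of the 9. Leaving them out, all 9 lay below 0, with a median of -0.73. Their part in the levels of the members was not tested.

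Some other lists also set adult replicates 3 and 4 apart by their sums, and others did not. Basal keratinocyte genes summed to 13023 to 18651 CPM in aged libraries, to 17026 and 16584 CPM in adult replicates 1 and 2, and to 8817.5 and 8955.7 CPM in adult replicates 3 and 4, with all 8 genes lowest there. Suprabasal keratinocyte genes summed to 15984 and 14081 CPM in adult replicates 3 and 4, against 6745.7 to 14630 CPM in the other libraries. Hair shaft and inner sheath genes summed to 791 and 1353 CPM there, against 250 to 592 CPM. Of these sums, Gata3 alone made up 167 to 284 CPM. Adult replicates 3 and 4 were both above the other 6 libraries in 7 of the 20 genes. By the median deviation of the list, aged replicate 1 (1.52) was as high as adult replicate 3 (1.43). Genes of proliferation summed to 266 and 442 CPM in adult replicates 3 and 4, against 544 to 643 CPM. Both were below the other 6 libraries in 6 of these 12 genes. The 3 most abundant, Mki67, Pcna and Top2a, had log2 fold changes of 0.30 ± 0.30, 0.34 ± 0.24 and 0.33 ± 0.29. The median of the list was 0.33, and 0.012 without adult replicates 3 and 4. Epidermal T cell genes summed to 83.3 to 157 CPM in aged and to 51.2 to 131 CPM in adult libraries, macrophage and monocyte genes to 13.8 to 22.7 and 15.6 to 22.7 CPM, and melanocyte genes to 21.3 to 54.0 and 29.2 to 53.9 CPM. The groups did not overlap in 1 of 9 epidermal T cell genes, Thy1, against 3.54% of all tested genes. Thy1 was at 0.61 ± 0.27 (adjusted p = 0.824), and 0.26 without adult replicates 3 and 4. Ivl, a suprabasal gene, was at -0.75 ± 0.28 (adjusted p = 0.775), and -0.24 without them. Both had an unadjusted p under 0.05 in edgeR. The neutrophil list summed to 39.6 to 77.3 CPM, nearly all of it from 1 gene, Cxcr2, at 37.85 to 74.25 CPM. The next gene, Csf3r, had 0.91 to 2.41 CPM, only 4 of the 7 genes were tested, and Ly6g had 0 counts in all libraries. No gene of these lists was called, and their part in the levels of the members was not tested.

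**Figure D5:**
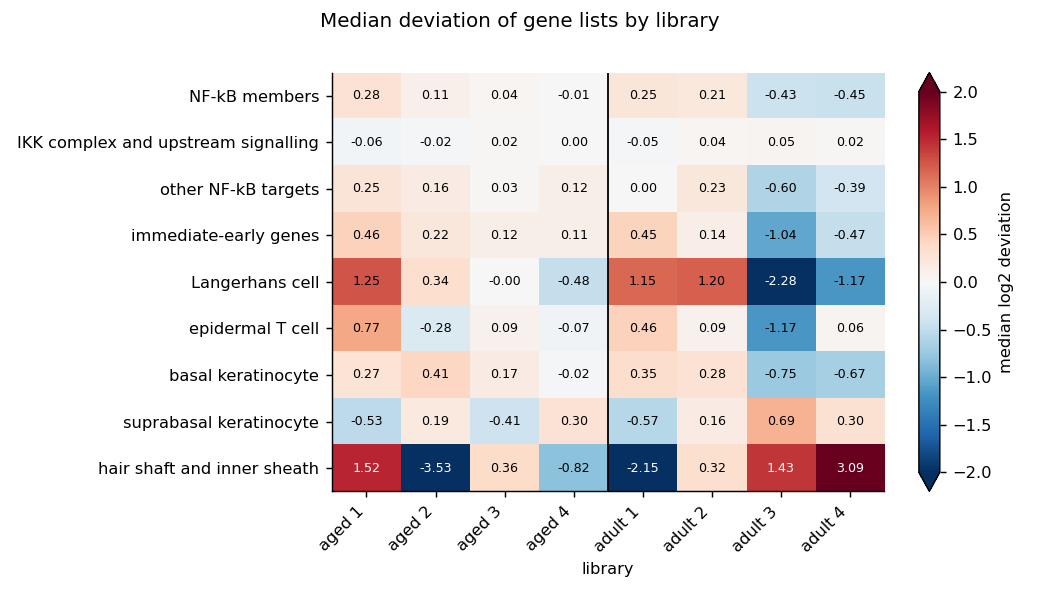
Median log2 deviation of the members and of 8 other gene lists in each library, from the mean of each gene over 8 libraries, with the number in each cell and the colour ending at -2 and 2. The members (-0.43 and -0.45), the immediate-early genes (-1.04 and -0.47), the Langerhans cell list (-2.28 and -1.17) and the basal keratinocyte list (-0.75 and -0.67) are low in adult replicates 3 and 4, and the upstream signalling list (0.049 and 0.024) is not.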

How the data were processed

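Raw counts of reads for each gene, without normalization, were deposited by the authors under Entrez identifiers. As the methods and labels state, STAR 2.5.2b aligned the reads to mm10 and featureCounts counted them with its own annotation. Reads over several genes were counted for each gene, and reads with several alignments were dropped, which lowers near-identical copies. For strand in the counting, the setting was not found in the sources used here. The labels also list mm9 without a role, and call the molecule polyA RNA although the protocol names a kit for total RNA depleted of ribosomal RNA.

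Symbols and positions were taken from RefSeq for GRCm38.p6, which named 25275 of the 27179 identifiers, and exon lengths from GENCODE vM21 of the same build. An exon length joins the exons of all transcripts of a gene, and may differ from the exons that featureCounts counted over. The member genes and all gene lists were chosen with earlier results of these data known, and all members are named. From each pathway, immediate-early or proliferation list the called genes were to be named or, with none called, the 3 highest by mean CPM, with Nfkbiz always. Ikbke, Zc3h12a, Ccl20, Cfb, Mmp3, Cxcr2, Csf3r, Gata3, Thy1, Ivl and Ly6g were added after their values were seen. Cd207 was added likewise, as the defining Langerhans marker.

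Age groups were compared by a quasi-likelihood test (edgeR 4.0.16, R 4.3.3), with TMM scaling and the expression filter of edgeR, and p-values were adjusted over all 17702 tested genes by the method of Benjamini and Hochberg. The common biological coefficient of variation was 0.258. Deviations and SDs on the log2 scale used a prior count of 2. An adjusted p is from this test where no tool is given. The scripts were tested on simulated data. Alternatives were DESeq2 1.42.0, limma-voom (limma 3.58.1), other scalings and filters, the replicate number as a block, and leaving out libraries. The experimental batch that the study fitted is not given per sample, so none was fitted here. The search for the degradation signal of IkB proteins was not run, as protein sequences were not used here.

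At this depth, counting error is small for most members. Between replicates the chi-square was 70.7 to 397 per degree of freedom, far over counting error, and mice, batch and handling cannot be told apart in this spread. Replicate numbers 1 to 4 occur in both groups, with no statement of what they mark. Across genes, the deviations of libraries from their group mean had correlations of 0.156, 0.412, 0.205 and 0.206 between libraries of the same number, all over 0.1, so by this criterion the numbers pair the libraries, on the data alone. Some unlike numbers were also over 0.1, such as aged 4 with adult 3 (0.304), so the pairing is uncertain. Values are from the fit without the block, which does not use this uncertain pairing. Blocked values are given for some members and for the medians of the targets and the IkB family.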

Additional observations from a re-analysis of the deposited data

Results flagged for a closer look

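In 62 groups of 4 libraries, each member in each age group, a single library was sought whose gap to the nearest other library took more of the range of the group than the critical value of Dixon's test at the 95% level. Chance gives about 1 in 20 such groups, and 6 were found. In the aged group, Tnfaip3 was highest in replicate 1 at 200 CPM (gap 0.869 of the range), Bcl2a1b was highest in replicate 1 at 2.15 CPM (0.883), Traf2 was lowest in replicate 1 at 33.3 CPM (0.870), and Nfkb1 was highest in replicate 3 at 114 CPM (0.834). In the adult group, Nfkbib was highest in replicate 2 at 10.6 CPM (0.902) and Plau was highest in replicate 3 at 38.9 CPM (0.893). None of these genes was called with age in edgeR with all 8 libraries.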

How the results depend on the processing

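No member was called under any alternative listed here, and the smallest adjusted p of a member over all of them was 0.309, in Ptgs2. The number of calls over all tested genes, 20, was 13 with library size alone and 10 without adult replicates 3 and 4. DESeq2, run over all 27179 genes, called 202. The number ran from 6 to 15 when each library was left out in turn, 6 being without aged replicate 3. It moved by over 1.5 times without any single library other than adult replicate 1 or 3 (15 each). With the replicate number as a block, which rests on an uncertain pairing, edgeR called 3 genes and 0 members, and the only member to change sign was Tnfaip2, at 0.20. The block raised the median of the targets from 0.169 to 0.35 and of the IkB family from 0.208 to 0.316. With it 10 member estimates were over 1.5 times larger in size, among them Cd83 (0.76 ± 0.41), Irf1 (0.37 ± 0.32), Icam1 (0.85 ± 0.37) and Tnip3 (1.66 ± 0.67). Under limma-voom these medians were 0.345 and 0.316. Library size alone turned Ripk2 to 0.0029, and limma-voom turned Tnfaip2 to 0.15 and Cd40 to 0.24.

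Leaving out adult replicates 3 and 4 turned the median of the members to -0.116, that of the subunits to -0.108, of the IkB family to -0.255, of the feedback regulators to -0.0685, of the adaptors and kinases to -0.0525 and of the targets to -0.343. It also turned Nfkb2 (-0.11), Rel (-0.11), Relb (-0.23), Nfkbia (-0.26), Nfkbie (-0.27), Nfkbid (-0.32), Tnfaip3 (-0.10), Cyld (-0.036), Map3k8 (-0.11), Map3k14 (-0.30), Ripk2 (0.067), Icam1 (-0.20), Cd83 (-0.60), Sod2 (-0.044), Irf1 (-0.57), Bcl2a1b (-0.082) and Ier3 (-0.49). Aged replicates 3 and 4, the lower aged libraries by the median of the targets, stayed in that fit. The cause was not tested.

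The stricter filter lowered the median of the feedback regulators from 0.31 to 0.105, as Tnip3 was not tested there.

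With each library left out in turn, the median of the members stayed between 0.0366 and 0.257 (lowest without adult replicate 4), that of the subunits between 0.0472 (without adult replicate 4) and 0.242, of the IkB family between 0.0182 (without adult replicate 3) and 0.376 and of the feedback regulators between 0.142 (without aged replicate 1) and 0.534. That of the adaptors and kinases ran from -0.015 to 0.129 and that of the targets from -0.0605 to 0.52. The adaptors and kinases fell below 0 without aged replicate 4 (-0.00875) or adult replicate 4 (-0.015), and the targets without adult replicate 3 (-0.0605) or adult replicate 4 (-0.0401). Some single library moved the estimate by over 1.5 times in 28 of 30 members, all except Bcl3 and Tnip1. Signs changed within the ranges of Nfkbid (-0.066 to 0.38), Ripk2 (-0.12 to 0.067), Cd83 (-0.11 to 0.75), Ier3 (-0.17 to 0.31), Tnfaip2 (-0.77 to 0.63), Sod2 (-0.050 to 0.062), Irf1 (-0.18 to 0.41), Map3k14 (-0.092 to 0.23), Nfkbib (-0.14 to 0.0074), Cd40 (-0.85 to 0.13) and Relb (-0.036 to 0.29). Other scalings and filters changed no other sign. Depth limits Vcam1, Cd40 and Tnip3, which had few counts, and for the other members the spread between libraries, whose source was not tested, is the limit.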
